A study of Mus musculus with 2 samples.

Results

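The genes described here are 7 through which arginine and extracellular adenosine act on lymphocytes in tumours: Arg1, Arg2, Nos2, Slc7a2, Entpd1, Nt5e and Adora2a. They were taken by exact gene symbol from the 32285 genes of each deposited count matrix, and each of the 7 symbols matched 1 row. The symbols alone set the members, and earlier results of these data were known when they were chosen. Tumours of RM-1, a mouse prostate cancer cell line, grew subcutaneously in C57BL/6 mice (genotype label WT) that received either vehicle or RP-6306, which inhibits the kinase PKMYT1, and were collected on day 10. Leukocytes sorted for CD45 were mixed with tumour cells at 3 to 1 and sequenced as droplet libraries read from the 3' end, so tumour and leukocyte numbers were set partly by hand. There was 1 library per treatment. Per the design text 2 tumour-bearing mice were used, but the labels do not tie a mouse to a library, so every difference below is between 2 libraries, has no replicate check and carries no test.

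Arginase, encoded by Arg1 in the cytosol and Arg2 in mitochondria, splits arginine into ornithine and urea and so removes an amino acid that T cells need. Nos2, the inducible nitric oxide synthase, uses the same arginine to make nitric oxide, and Slc7a2 encodes CAT2, a transporter that brings arginine into macrophages. On the cell surface, Entpd1 encodes CD39, which trims extracellular ATP and ADP to AMP, Nt5e encodes CD73, which turns AMP into adenosine, and Adora2a encodes an adenosine receptor, through which adenosine restrains T and NK cells.

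After filtering, the vehicle library held 16082 cells with a median of 3113.5 unique molecular identifiers (UMIs, each a captured RNA molecule), and the RP-6306 library held 14916 cells with a median of 2846. Cells were clustered without the 7 genes, and clusters were called X-like from marker genes. Macrophage and monocyte-like cells (464 in vehicle, 469 in RP-6306) had all 10 macrophage and all 8 monocyte markers detected in both libraries, neutrophil-like cells (48 and 42) all 8 neutrophil markers, and tumour-like cells (2847 and 3096) 11 of 12 epithelial markers, with Krt5 at 0. Detected means any UMI in the summed class, so these counts alone do not set a class apart from the others. Levels are given as CPM, the UMIs of a gene per 1000000 UMIs of that class in that library, with exact Poisson 95% intervals that cover counting error only. Ratios are log2 of CPM + 1 in RP-6306 over vehicle, with exact binomial 95% intervals computed without that pseudocount, and need 50 cells in each library and 20 UMIs over both. A total of 324 cell barcodes occurred in both libraries, and 25.7% of the vehicle cells and 13.8% of the others lay in clusters of mixed lineage, which were left without a name.

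Arg1 lay on chromosome 10 (GRCm38, 24915221 to 24927484, minus strand), and in the immune cells it was a macrophage gene. In macrophage and monocyte-like cells its level was 596 CPM in vehicle (interval 569 to 624, 1784 UMIs) and 572 CPM in RP-6306 (550 to 595, 2506 UMIs). The log2 ratio was -0.06, with an interval from -0.15 to 0.03. These cells were 2.89% of vehicle and 3.14% of RP-6306 cells but held 30.2% and 42.1% of all Arg1 UMIs. In CD4 T-like cells Arg1 stood at 5.2 and 2.48 CPM, in CD8 T-like cells at 5.11 and 3.2 CPM, and in B-like cells at 7.31 and 2.68 CPM. B cells are not known as a source of arginase, so the B-like share of cells with an Arg1 UMI (1.62% and 0.562%, at median depths of 2203 and 1953 UMIs) is read as the background that free RNA can give. The share was 1.41% of CD4 and 1.47% of CD8 T-like cells in vehicle and 0.586% and 0.86% in RP-6306, close to that background.

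**Figure D1:**
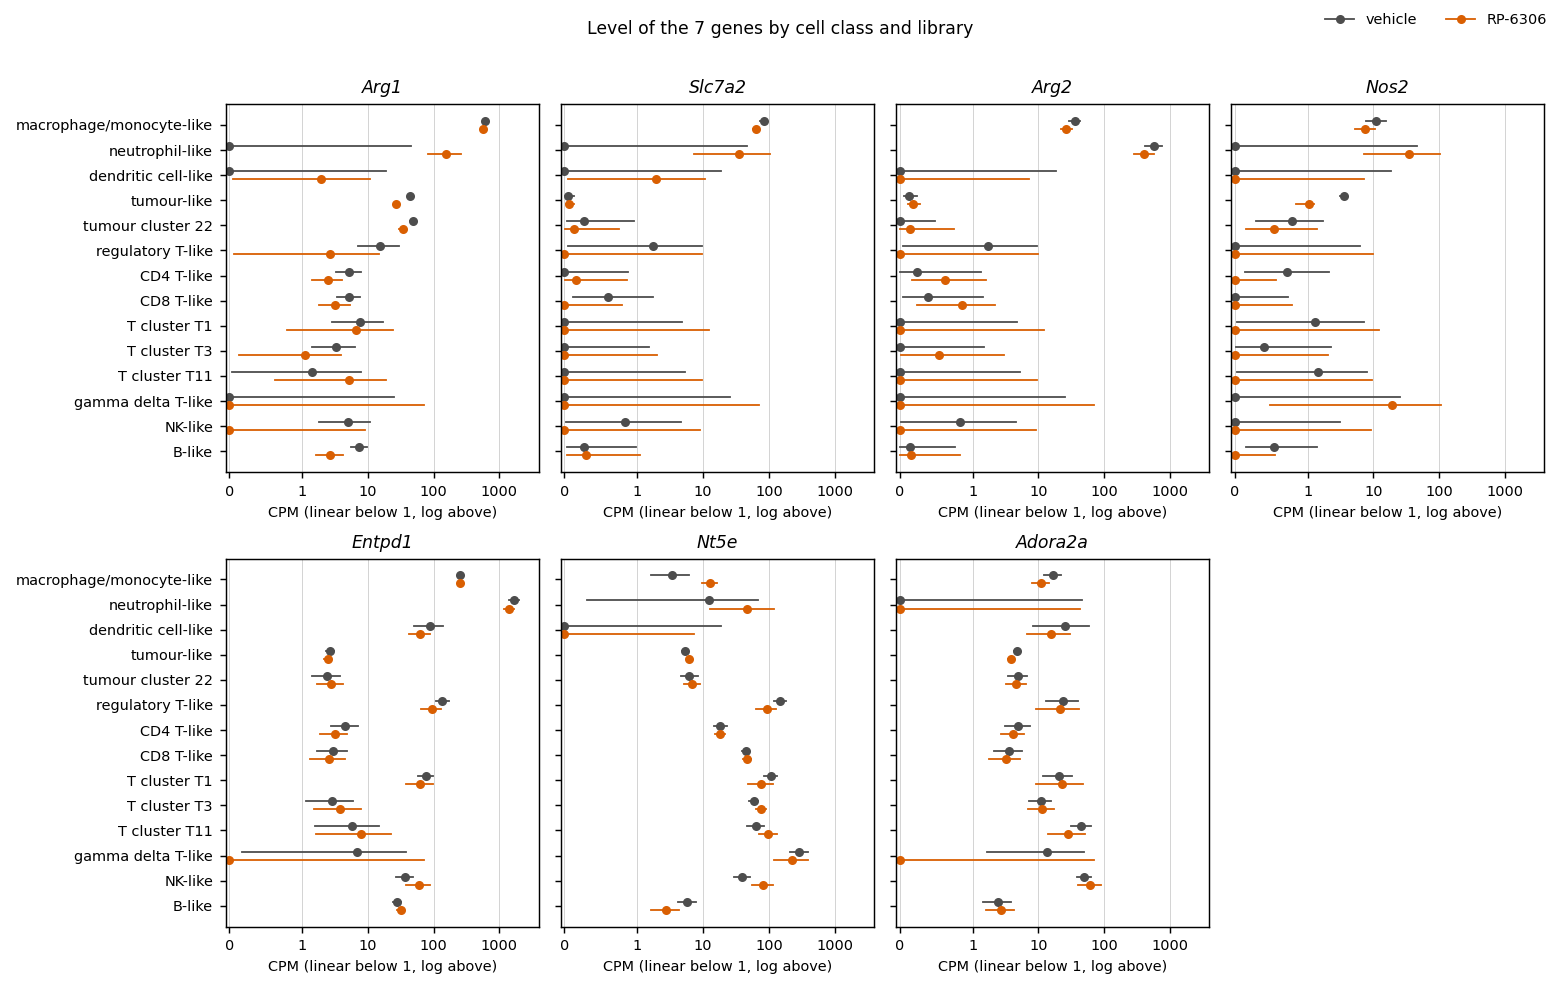
Level of each of the 7 genes by cell class, as CPM on an axis that is linear below 1 and logarithmic above; points are libraries (grey vehicle, orange RP-6306) and lines exact Poisson 95% intervals. Arg1 and Slc7a2 are highest in macrophage and monocyte-like cells, Arg2 and Entpd1 in neutrophil-like cells, and Nt5e in gamma delta T-like cells.

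The macrophage states differed in Arg1 far more than the libraries did. In cluster M3, led by heat shock genes and Hmox1, Arg1 was 1579 CPM in vehicle and 1324 CPM in RP-6306. Cluster M11, led by Fn1, F7 and Spp1, had 1163 and 995 CPM, and cluster M1, led by complement C1q genes and Pf4, had 995 and 1065 CPM. At the other end, the inflammatory monocyte cluster M10 (Chil3, Ly6c2) had 4 Arg1 UMIs in vehicle, 8.56 CPM, and 0 in RP-6306. Cluster M4 (Ace, Spn), genes of patrolling monocytes, had 0 UMIs in vehicle and 1 UMI in RP-6306, 4.2 CPM. In both libraries the intervals of M3, M11 and M1 lay above those of M2, M5, M10 and M4 without overlap.

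Between these ends, the Thbs1 and Vcan cluster M2 had 210 CPM in vehicle and 358 CPM in RP-6306, a log2 ratio of 0.77 (0.34 to 1.21, 75 and 119 UMIs). These UMIs lay in 13 and 15 cells, the highest cell held 29.3% and 31.9% of them, and at 2000 UMIs per cell the share of M2 cells with Arg1 was 11.1% in both libraries. The Cxcl9 and Cxcl10 cluster M5, which carries interferon-response genes, had 217 and 175 CPM. Cluster M11 went the other way from M2, with a log2 ratio of -0.22 (-0.38 to -0.07). The Mrc1 and Folr2 cluster M12 had 923 CPM in vehicle and 594 CPM in RP-6306 but only 14 vehicle cells. Taken with M1 as the Mrc1 and C1q state, 51 vehicle and 105 RP-6306 cells had 962 and 697 CPM, a log2 ratio of -0.46 (-0.63 to -0.29). That sum mixes the clusters in different proportions: M12 gave 45.7% of its UMIs in vehicle and 78.1% in RP-6306, and M1 alone had a log2 ratio of 0.1, with an interval from -0.15 to 0.35 and under 50 cells in each library. In the Dcstamp and Mmp12 cluster M14, 31 vehicle cells had 1003 CPM (912 to 1100) and 46 RP-6306 cells 248 CPM (212 to 287). With under 50 cells in each library no ratio was formed for M14, and the highest cell held 11.4% of its Arg1 UMIs in vehicle and 24.4% in RP-6306.

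The level of the whole class is a sum over states that differed in Arg1 and in number. M11 made up 13.1% of the class in vehicle and 23.2% in RP-6306, M12 3.02% and 13%, and M10, which had almost no Arg1, 17% and 9.17%. Weighting the 9 clusters equally, an alternative chosen after seeing the data, gave 678 and 529 CPM and a log2 ratio of -0.36. Thinning each cell to 2000 UMIs turned the direction, to 0.24, as did averaging the CPM of single cells, to 0.18. The share of cells with an Arg1 UMI was 31.9% in vehicle and 42.9% in RP-6306, at median depths of 5526.5 and 7647 UMIs, and 24.6% and 29.0% after thinning. Over all macrophage and monocyte-like cells the macrophage marker list summed to 2912 CPM in vehicle and 5276 CPM in RP-6306, the neutrophil list to 277 and 347 CPM, the T list to 22.1 and 30.4 CPM and the epithelial list to 41.1 and 25.8 CPM. Their part in the Arg1 values was not tested.

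**Figure D2:**
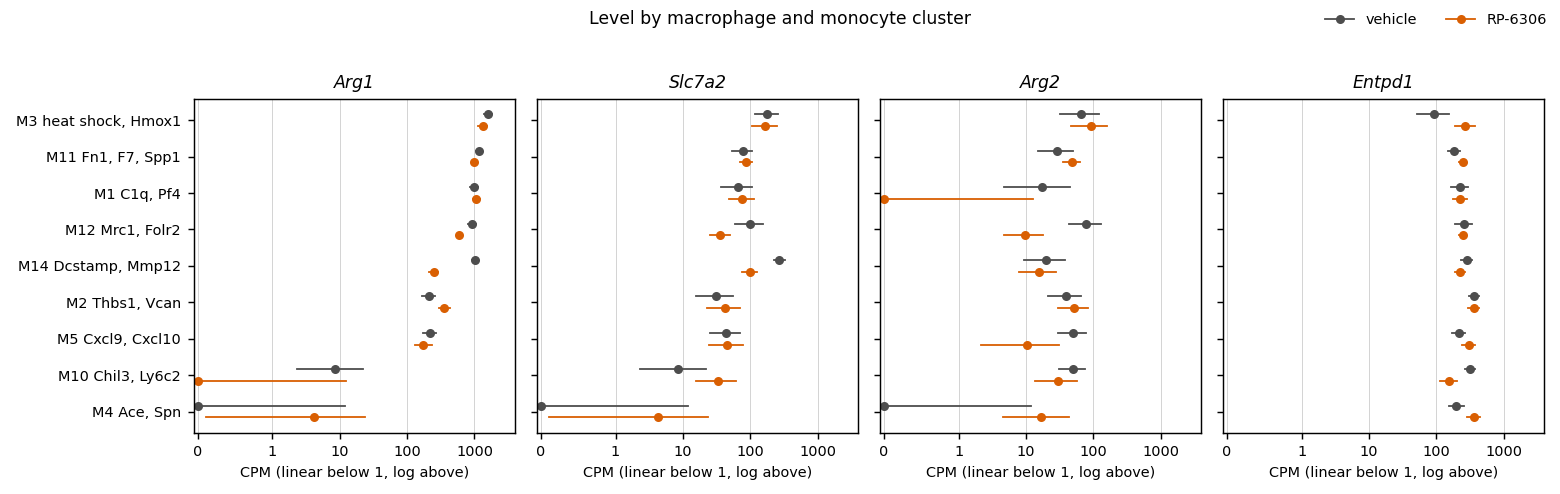
Level of Arg1, Slc7a2, Arg2 and Entpd1 in the 9 macrophage and monocyte clusters, as CPM on an axis that is linear below 1 and logarithmic above; points are libraries and lines exact Poisson 95% intervals. Arg1 runs from 1579 CPM in vehicle M3 to 0 in vehicle M4, while Entpd1 stays between 92.9 CPM and 364 CPM in every cluster of both libraries.

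Within the class Arg1 was uneven from cell to cell. The median macrophage or monocyte-like cell had 0 Arg1 UMIs in both libraries. The 47 cells with the most in each library held 77.1% of the class's Arg1 UMIs in vehicle and 68.1% in RP-6306, and the highest single cell had 59 and 110 UMIs. Leaving out the highest cell of each library moved the log2 ratio of the class from -0.06 to -0.07.

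Arg1 was also found in the tumour cells, at a far lower level and more evenly. In tumour-like cells it was 43.3 CPM in vehicle (41.9 to 44.8, 3418 UMIs) and 26.9 CPM in RP-6306 (25.9 to 27.9, 2799 UMIs). The log2 ratio was -0.67, from -0.76 to -0.61. As tumour-like cells had median depths of 26762 and 31962 UMIs, 52.1% and 45.2% of them had an Arg1 UMI, and 7.36% and 5.17% did at 2000 UMIs per cell. They held 57.8% of all Arg1 UMIs in vehicle and 47.0% in RP-6306, more than the macrophages. Such shares of UMIs depend on cell numbers, which were set partly by hand, and on depth. They do not rank the sources of Arg1 in the tumour. The 285 cells with the most in vehicle held 45.0% of the class's Arg1 UMIs, and the 310 with the most in RP-6306 held 48.1%.

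RNA of macrophage genes was low in the same tumour-like cells. Tumour-like cells held 1071 Arg1 UMIs per 100 UMIs of the macrophage genes C1q, Lyz2 and Apoe in vehicle and 581 in RP-6306, against 10.5 and 6.74 in macrophage and monocyte-like cells. In the tumour-like cells with no UMI of C1qa, C1qb, C1qc, Lyz2 or Ptprc (2211 and 2480 cells), a selection added after seeing the data, Arg1 was 43.1 and 26.6 CPM. Per 100 cells, tumour-like cells carried 120 and 90.4 Arg1 UMIs and B-like cells 1.71 and 0.562.

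The lower Arg1 in the RP-6306 tumour cells was seen in most of their clusters. In tumour cluster 1 it was 49.3 CPM in vehicle and 29.3 CPM in RP-6306 (log2 -0.73, -0.85 to -0.65). In cluster 19, led by S phase histone genes, it was 37.6 and 25.2 CPM (-0.56, -0.73 to -0.43). Cluster 22, led by Mir100hg, Meis1 and Mir99ahg and kept apart from the tumour-like class, had 48.1 and 33.8 CPM (-0.49, -0.74 to -0.27). Col3a1 and Col1a1 stood further down its leading genes. Cluster 3, led by mitotic genes, had 27.4 and 24.7 CPM (-0.14), and its interval from -0.35 to 0.05 included 0. Cluster 3 was the lowest of these 4 in both libraries, next to cluster 19 in RP-6306, from which its interval did not separate. The tumour-like class mixed its clusters in different proportions. Cluster 1 had 1921 vehicle and 1620 RP-6306 cells, cluster 19 had 552 and 808, and cluster 3 had 374 and 668. The part of that mix in the class ratio of Arg1 was not tested. Over all cells of a library, Arg1 stood at 46.5 and 40.4 CPM.

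**Figure D3:**
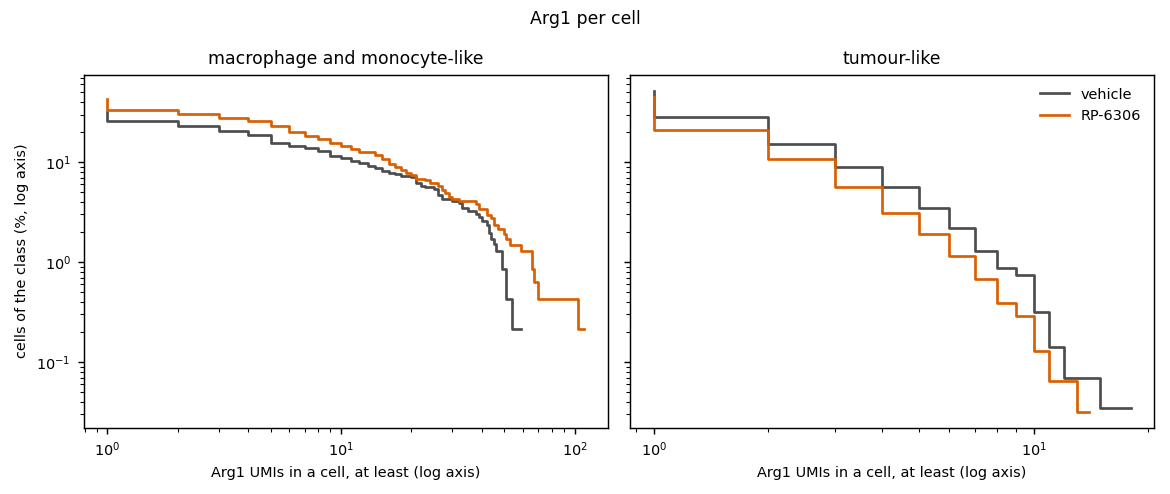
Share of macrophage and monocyte-like cells (left) and of tumour-like cells (right) that held at least a given number of Arg1 UMIs, both axes logarithmic, 1 line per library (grey vehicle, orange RP-6306). The macrophage tail reaches 59 UMIs in vehicle and 110 UMIs in RP-6306, while the tumour tail ends at 18 and 14.

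Slc7a2, the arginine transporter gene on chromosome 8 (40862396 to 40922308, plus strand), was almost wholly a macrophage gene. Macrophage and monocyte-like cells had 83.2 CPM in vehicle (73.2 to 94.2, 249 UMIs) and 63.9 CPM in RP-6306 (56.7 to 71.9, 280 UMIs), and they held 88.9% and 90.9% of its UMIs. The log2 ratio was -0.37 (-0.63 to -0.13), and 0.1 when the CPM of single cells was averaged. Tumour-like cells had 4 and 6 UMIs, and each T-like class had 3 or fewer in either library. By cluster, M14 had 271 CPM in vehicle and 97.9 CPM in RP-6306, and M3 had 179 and 167 CPM. The 31 vehicle cells of M14 held 121 of the 249 vehicle UMIs of the class, and the 46 RP-6306 cells 68 of 280. In M14 the highest cell held 24.8% of the UMIs in vehicle and 19.1% in RP-6306. The class ratio thus leans on a small cluster. The Mrc1 and C1q state had 80.2 and 44.7 CPM (log2 -0.83, -1.48 to -0.19), but M1 alone had 65.2 and 76.1 CPM, with overlapping intervals, and M12 98.0 CPM in 14 vehicle cells and 35.9 CPM in RP-6306. Their mix differed as for Arg1. M11 had 77.2 and 86.6 CPM (0.16, -0.41 to 0.77).

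Arg1 and Slc7a2 were often found in the same macrophages. Slc7a2 had a UMI in 35.8% of the 148 vehicle macrophage and monocyte-like cells that held Arg1 and in 6.96% of the others. In RP-6306 these shares were 37.8% of 201 cells and 14.6%. Cells with Arg1 were deeper, with medians of 6835.5 against 5223.5 UMIs in vehicle and 9875 against 6418.5 in RP-6306. At 2000 UMIs per cell the shares were 23.1% against 4.23% in vehicle and 9.3% against 7.91% in RP-6306. Those shares rest on 25 of 108 Arg1 cells in vehicle and 12 of 129 in RP-6306.

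Arg2, on chromosome 12 (79130777 to 79156301, plus strand), had its highest level in neutrophil-like cells. These cells had 583 CPM in vehicle (428 to 775, 47 UMIs) and 410 CPM in RP-6306 (285 to 570, 35 UMIs), with a UMI in 41.7% and 50% of cells. The intervals overlap, and with 48 and 42 cells no ratio was formed. In the same cells Arg1 was at 0 UMIs in vehicle, which allows up to 37.2 CPM (3 counts). In RP-6306 the neutrophil-like cells held 13 Arg1 UMIs, 152 CPM, all in 2 cells of 42, and both of those cells also held UMIs of the macrophage marker list, as did 35.0% of the other 40.

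Macrophage and monocyte-like cells had 35.7 CPM of Arg2 in vehicle (107 UMIs) and 26.7 CPM in RP-6306 (117 UMIs), a log2 ratio of -0.41 (-0.81 to -0.03). That direction turned to 0.23 when cells were thinned to 2000 UMIs. The Mrc1 and C1q state had 44.8 and 7.57 CPM, from 19 and 10 UMIs, a log2 ratio of -2.42 (-3.83 to -1.39), and 11 of the 19 vehicle UMIs came from 1 cell of cluster M12. In M11 Arg2 was 28.7 and 47.5 CPM (0.71, -0.17 to 1.73). Unlike Arg1, Arg2 was present in the inflammatory monocyte cluster M10, at 49.2 and 29.8 CPM. Tumour-like cells had 10 and 19 UMIs, under 1 CPM in both libraries.

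Nos2, on chromosome 11 (78920787 to 78960254, plus strand), was sparse everywhere. Macrophage and monocyte-like cells had 33 UMIs in each library, 11 CPM in vehicle and 7.54 CPM in RP-6306 (log2 -0.49, -1.29 to 0.19). These lay in 3.66% and 2.99% of cells, and 15 of the 17 vehicle cells and 12 of the 14 RP-6306 cells with Nos2 also held Arg1. Cluster M3 had 6 UMIs (39.8 CPM) in vehicle and 14 UMIs (107 CPM) in RP-6306, the highest level of the macrophage clusters in RP-6306. In vehicle cluster M12 was at a like level, with 8 UMIs (41.3 CPM), and it had 0 UMIs in RP-6306.

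Most Nos2 UMIs came from tumour-like cells, 280 of 387 in vehicle and 107 of 162 in RP-6306, a share that also depends on cell numbers and depth. The level was 3.55 CPM in vehicle (3.14 to 3.99) and 1.03 CPM in RP-6306 (0.843 to 1.24). Its log2 ratio was -1.17, and -1.79 without the pseudocount (-2.12 to -1.46), since the pseudocount understates changes at such low levels. Nos2 had a UMI in 5.55% and 1.68% of tumour-like cells, and in 0.127% and 0% of B-like cells, where 0 of 3205 allows a share of up to 0.0936%. The B-like cells were far shallower, with median depths of 2203 and 1953 UMIs against 26762 and 31962. At 2000 UMIs per cell the tumour-like shares were 1.09% and 0.227%, and the B-like shares 0.0985% and 0%, the latter with an exact binomial upper limit of 0.246%. At that depth the RP-6306 tumour-like share thus lay within the B-like limit. Cluster 1 had 4.76 and 2.03 CPM, cluster 19 had 2.32 and 0.338 CPM, and cluster 3 had 5 and 2 UMIs. The class mixed these clusters in different proportions, as given for Arg1, and the part of that mix in the Nos2 ratio was not tested. In tumour-like cells with no UMI of C1qa, C1qb, C1qc, Lyz2 or Ptprc, Nos2 was 3.56 and 0.992 CPM. Genes of the macrophage list had a UMI in 55.7% of the vehicle tumour-like cells with Nos2 and in 41.2% of the others, and in 46.2% and 36.8% in RP-6306. A further 44 vehicle UMIs lay in unnamed cluster 17 (Ptprg, Sdk1, Magi1 leading), in 11 of its 300 cells, with 12 UMIs in 1 cell. In RP-6306 this cluster had 0 Nos2 UMIs in 167 cells.

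Entpd1, on chromosome 19 (40612366 to 40741602, plus strand), was highest in neutrophil-like cells, at 1674 CPM in vehicle (1404 to 1981, 135 UMIs) and 1416 CPM in RP-6306 (1175 to 1692, 121 UMIs). A UMI was found in 66.7% and 69.0% of these shallow cells. Macrophage and monocyte-like cells followed, with 249 CPM (231 to 267) and 253 CPM (238 to 268), a log2 ratio of 0.02 (-0.11 to 0.16). They held 39.5% of Entpd1 UMIs in vehicle and 53.8% in RP-6306. Every macrophage and monocyte cluster carried Entpd1. Its lowest level was 92.9 CPM in vehicle M3 and its highest 364 CPM in vehicle M2. It did not follow Arg1 across the states, since M10 and M4, almost without Arg1, had 317 and 198 CPM of Entpd1 in vehicle and 152 and 357 CPM in RP-6306. In M11 it was 183 and 244 CPM (0.41, 0.05 to 0.79).

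Among the named lymphocyte classes Entpd1 was highest in regulatory T-like cells. They had 135 CPM in vehicle (107 to 169, 79 UMIs) and 92.7 CPM in RP-6306 (64.6 to 129, 35 UMIs). The log2 ratio was -0.54, and its interval from -1.16 to 0.05 included 0. Different clusters held most regulatory T-like cells in the 2 libraries: T0 had 164 vehicle and 40 RP-6306 cells, and T9 had 33 and 97. In T0 alone Entpd1 was 150 and 172 CPM, and in T9 61.6 and 36.3 CPM from 6 and 8 UMIs. The high level was thus a trait of T0 rather than of the whole class. Next came T cluster T1, led by Gzmk, Tnfsf11 and Pdcd1 and scoring alike on the CD4 and CD8 marker lists, at 76.5 and 62.5 CPM (-0.29, -1.12 to 0.47), with an interval that overlapped that of the regulatory T-like cells in RP-6306. NK-like cells had 36.2 and 58.9 CPM (0.69, -0.08 to 1.45) and B-like cells 27.6 and 31.3 CPM (0.17, -0.11 to 0.46). CD8 T-like, CD4 T-like and tumour-like cells were all under 5 CPM in both libraries. Dendritic cell-like cells (31 and 46) had 86.4 and 61.8 CPM.

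Nt5e, on chromosome 9 (88327197 to 88372092, plus strand), was highest per UMI in T cells. Gamma delta T-like cells had the most, 288 CPM in 48 vehicle cells (207 to 389) and 229 CPM in 19 RP-6306 cells (118 to 400), too few cells for a ratio. Regulatory T-like cells had 147 CPM in vehicle (118 to 182) and 92.7 CPM in RP-6306 (64.6 to 129), a log2 ratio of -0.66 (-1.28 to -0.09). Within them T0 had 169 and 89.1 CPM, while T9 had 41.0 and 95.3 CPM from 4 and 21 UMIs, 9 of the latter in 1 cell. T cluster T1 had 107 and 75.7 CPM (-0.50, -1.23 to 0.18), and T cluster T11, led by NK receptor genes, 63.7 and 98.5 CPM (0.62, -0.03 to 1.28).

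The larger conventional T classes carried Nt5e at steady levels. CD8 T-like cells had 44.2 CPM in vehicle and 47.0 CPM in RP-6306 (0.08, -0.19 to 0.36), and CD4 T-like cells 18.2 and 18.1 CPM (-0.01, -0.43 to 0.43). T cluster T3, CD8 cells led by Ly6c2 and Plac8, had 58.4 and 76.5 CPM (0.38, 0.04 to 0.73). NK-like cells had 39.5 CPM from 48 UMIs in vehicle and 81.0 CPM from 33 UMIs in RP-6306, a log2 ratio of 1.02 (0.35 to 1.7). The T marker list summed to 446 CPM in vehicle and 646 CPM in RP-6306 NK-like cells, and its part in the Nt5e difference was not tested. T genes had a UMI in 75% of vehicle and 71.4% of RP-6306 NK-like cells with Nt5e, and in 57.7% and 64.2% of those without. B-like cells had 5.68 and 2.68 CPM (-0.86, -1.97 to -0.26).

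In macrophage and monocyte-like cells Nt5e was scarce in vehicle, with 10 UMIs, 3.34 CPM (1.6 to 6.14), and less so in RP-6306, with 55 UMIs, 12.6 CPM (9.46 to 16.3). The log2 ratio was 1.64 (0.92 to 3.05). It was spread over 9 vehicle and 31 RP-6306 cells, no cell held more than 6 UMIs, and 28 of the 55 RP-6306 UMIs lay in M11, where the level was 6.62 and 26.1 CPM. In RP-6306, T genes had a UMI in 16.1% of the 31 cells with Nt5e and in 6.39% of the other 438. For fibroblast genes these shares were 12.9% and 3.65%, for tumour genes 22.6% and 18.9%, and the cells with Nt5e were deeper, at a median of 11903 against 7436.5 UMIs. In tumour-like cells, which held 25.7% and 41.1% of all Nt5e UMIs, the level was 5.3 and 6.06 CPM (0.17, 0.01 to 0.38).

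Adora2a, on chromosome 10 (75316877 to 75334784, plus strand), was highest in NK-like cells. They had 50.2 CPM in vehicle (38.4 to 64.5, 61 UMIs) and 61.4 CPM in RP-6306 (39.7 to 90.6, 25 UMIs), a log2 ratio of 0.28 (-0.44 to 0.98). T cluster T11 came next in vehicle, with 45.3 CPM, and had 28.5 CPM in RP-6306 (-0.65, -1.81 to 0.36), and its intervals overlapped those of the NK-like cells. Regulatory T-like cells had 24.0 and 21.2 CPM (-0.17, -1.64 to 1.17), T1 20.4 and 23.0 CPM (0.17, -1.35 to 1.54) and T3 10.9 and 11.4 CPM (0.06, -0.83 to 0.94). CD8 T-like cells had 3.54 and 3.2 CPM and CD4 T-like cells 4.96 and 4.18 CPM, close to the 2.44 and 2.68 CPM of B-like cells.

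Macrophage and monocyte-like cells had 16.7 CPM of Adora2a in vehicle and 11 CPM in RP-6306 (-0.57, -1.21 to -0.01), with the most in M2, at 42.0 and 24.1 CPM. In tumour-like cells Adora2a was 4.76 and 3.81 CPM (-0.26, -0.53 to -0.11). Neutrophil-like cells had no Adora2a UMI in either library, which allows up to 37.2 CPM in vehicle and 35.1 CPM in RP-6306.

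**Figure D4:**
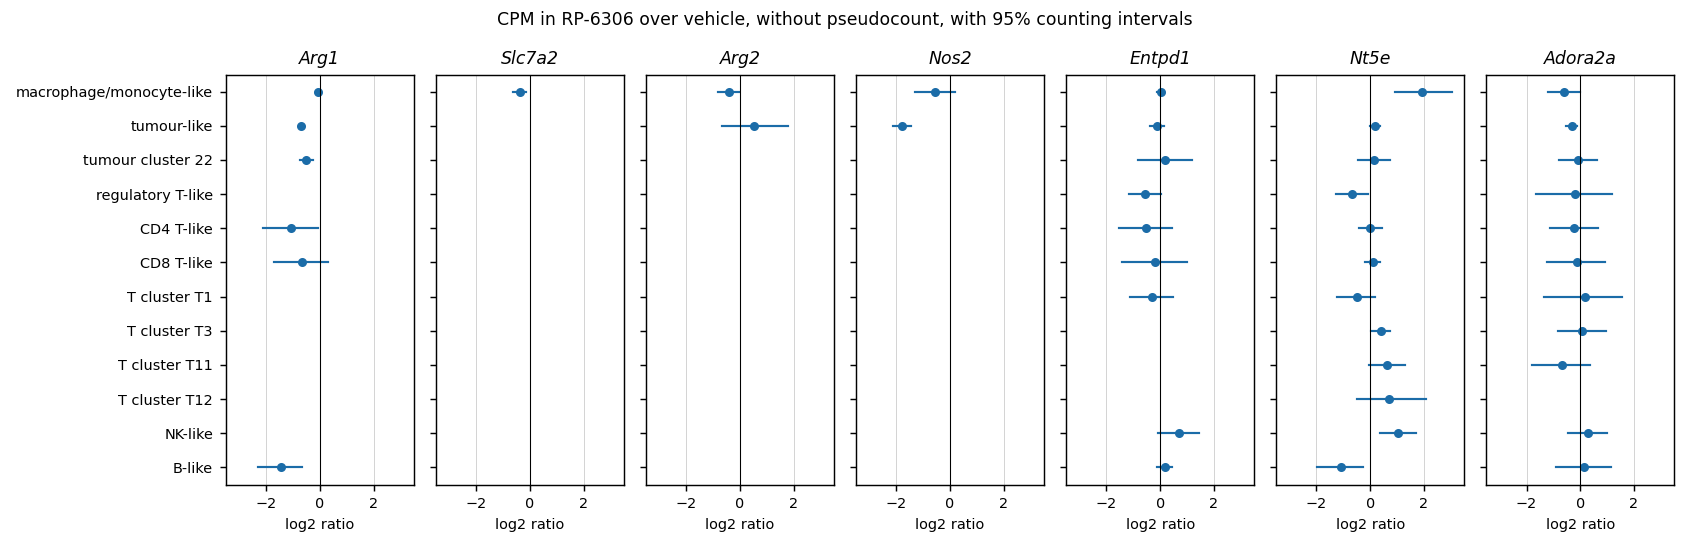
Log2 ratio of CPM, RP-6306 over vehicle, for each gene and each class with at least 50 cells per library and 20 UMIs over both; points are ratios without a pseudocount and lines exact binomial 95% intervals, which cover counting error only. Nt5e lies to the right in macrophage and NK-like cells and to the left in regulatory T-like and B-like cells, and Nos2 and Arg1 lie to the left in tumour-like cells.

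Set against all genes, 1 of the 7 members passed a 2-fold difference in macrophage and monocyte-like cells, Nt5e, against 4.23% of the 10347 genes measured there. The members' median log2 ratio was -0.37, and that of all genes 0.1. In tumour-like cells 1 of the 6 members measured passed, Nos2, against 0.292% of 17101 genes, with medians of -0.17 and 0.02. In NK-like cells it was 1 of 3, Nt5e, against 5.13% of 7414 genes, and in B-like cells 1 of 4, Arg1, against 2.54% of 11728 genes. The B-like Arg1 count (54 and 18 UMIs) is read above as background of free RNA. It is not read as a difference in B cell expression. None of the 4 members measured in CD8 T-like cells passed 2-fold (2.13% of 10838 genes did), none of 4 in CD4 T-like cells (2.48% of 10989) and none of 3 in regulatory T-like cells (8.13% of 6234).

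Around the members, 4 lists of related genes were read in the same way. In macrophage and monocyte-like cells 18 of 25 genes of arginine and polyamine metabolism were measured, 12 higher and 6 lower in RP-6306, with a median of 0.13. Of all genes measured there 6391 were higher and 3956 lower, 61.8% higher, with a median of 0.1, so the list lay near that background. Srm, spermidine synthase, was 28.7 and 76.3 CPM (1.38, 1.06 to 1.77). It was the 1 gene of the 18 past 2-fold, where 4.23% of all genes were. Odc1, ornithine decarboxylase, which takes the ornithine that arginase makes into polyamines, was 125 and 175 CPM (0.48, 0.3 to 0.67), and Oat, which takes it toward proline, 26.1 and 39.3 CPM (0.57, 0.2 to 1.0). Sat1, which breaks polyamines down, was 385 and 269 CPM (-0.51, -0.63 to -0.4).

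Of the 29 adenosine and extracellular nucleotide genes 21 were measured in these cells, 16 higher and 5 lower, with a median of 0.39, beside 61.8% higher and a median of 0.1 over all genes. The 2 past 2-fold, where 4.23% of all genes were, were Cd38, an ectoenzyme that consumes NAD, at 85.2 and 214 CPM (1.32, 1.13 to 1.54), and Enpp1, named after its value was seen, with 4 and 20 UMIs (1.25). Slc29a1, the adenosine transporter ENT1, was 16 and 32.7 CPM (0.98, 0.55 to 1.53). Among 26 regulators of Arg1 and Nos2, 11 were higher and 15 lower with a median of -0.09 and none past 2-fold. Irf1, a transcription factor that interferon gamma induces and that acts on Nos2, was 204 and 148 CPM (-0.47). Pparg was 20.4 and 13 CPM (-0.61, -1.19 to -0.1).

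Of 20 other genes of myeloid suppression 16 were measured there, 7 higher and 9 lower, with a median of -0.05. Mrc1, the mannose receptor, was 489 and 1459 CPM (1.58, 1.49 to 1.66), but it also led cluster M12, whose share of the class differed as given above. Hmox1 was 68.5 and 116 CPM (0.75), Il10 5.35 and 11.6 CPM (1.0, 0.29 to 2.03, 16 and 51 UMIs) and Pdcd1lg2, encoding PD-L2, 24.4 and 13.9 CPM (-0.77, -1.32 to -0.3).

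**Figure D5:**
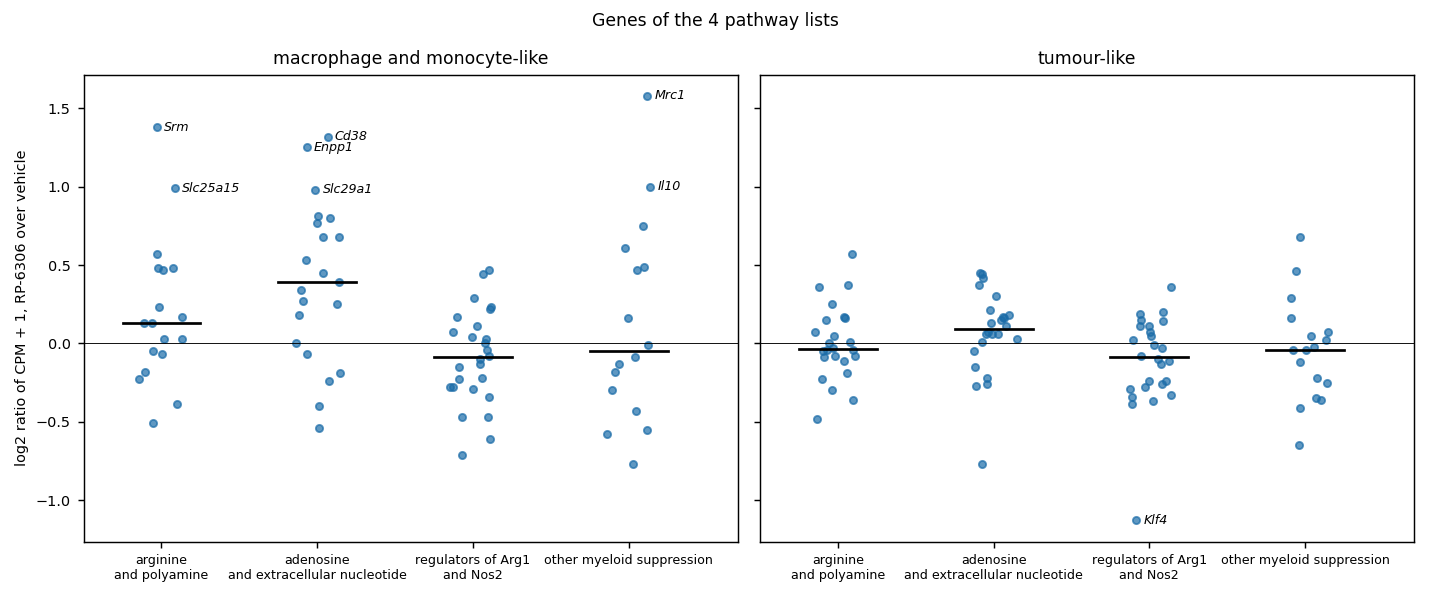
Log2 ratio of CPM + 1, RP-6306 over vehicle, of each measured gene of the 4 lists in macrophage and monocyte-like cells (left) and in tumour-like cells (right); each point is a gene, bars are list medians, and genes beyond 0.9 in either direction are named. The macrophage adenosine list has the highest median, 0.39, and Klf4 is the lowest tumour gene at -1.13.

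In tumour-like cells the lists differed little between the libraries. Over the 4 lists 1 of 91 measured genes passed 2-fold, beside 0.292% of all 17101 genes. Of all genes there 54.3% were higher in RP-6306, with a median of 0.02. In the order given below, the lists had 11 genes higher and 13 lower, 18 and 6, 10 and 16, and 7 and 10. The arginine and polyamine list had a median of -0.04 over 24 genes with none past 2-fold, although Srm was again among the highest, at 78.1 and 116 CPM (0.57, 0.53 to 0.62). The adenosine list had a median of 0.09 over 24 genes, with Slc29a1 at 59.6 and 81.5 CPM (0.45, 0.4 to 0.5) and Ampd3, an AMP deaminase, at 5.56 and 2.85 CPM (-0.77). Among 26 regulators Klf4, a transcription factor that acts with STAT6 at Arg1 in mouse macrophages, was the 1 past 2-fold, at 63.7 and 28.6 CPM (-1.13, -1.22 to -1.09). Nfkb1 was 720 and 548 CPM (-0.39, -0.41 to -0.38). Over 17 genes of other suppression the median was -0.04.

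Over the 4 lists, 6 of 68 measured genes passed 2-fold in CD4 T-like cells (2.48% of all genes did), 3 of 67 in CD8 T-like cells (2.13%) and 6 of 50 in regulatory T-like cells (8.13%). In CD4 T-like cells the cytokine feedback inhibitors Socs1 (44.2 and 96.5 CPM, 1.11) and Socs3 (39.0 and 84.1 CPM, 1.09) were higher, and Vegfa (25.8 and 9.13 CPM, -1.4) and Cd38 (8.98 and 2.63 CPM, -1.46) were lower. Il13ra1 (-1.01) and Ddah2, named after its value was seen (-1.0), completed the 6. Different clusters held most CD4 T-like cells, T5 in vehicle and T7 in RP-6306. In CD8 T-like cells Il13ra1 was lower (11.6 and 4.05 CPM, -1.32), Socs1 higher (32.6 and 66.4 CPM, 1.0) and Hmox1, named after its value was seen, was at 5 and 16 UMIs. There Entpd5, an ER nucleotidase of the CD39 family, was 24.0 and 45.0 CPM (0.88, 0.58 to 1.24). In regulatory T-like cells Odc1 was 709 and 373 CPM (-0.92, -1.21 to -0.65) and Dpp4, which encodes CD26, 66.8 and 177 CPM (1.4, 0.82 to 2.02). Ifngr2, which encodes part of the receptor for interferon gamma, was 56.5 and 175 CPM (1.61), and Epas1 was 73.6 and 18.5 CPM (-1.93). Most regulatory T-like cells lay in T0 in vehicle and in T9 in RP-6306. The part of that mix in these 4 differences was not tested.

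By pattern over 40 sums of 23 clusters and 2 libraries (Pearson correlation of log2(CPM + 1) among 13805 genes, a description over sums that share libraries), the genes most like Arg1 were Creb5 (0.9), Dip2c (0.89) and Nus1 (0.88). A cluster with under 50 cells in a library gave no sum for it. M1, M3, M14 and the neutrophil-like, gamma delta T-like and dendritic cell-like clusters were therefore absent. These include the clusters with the highest Arg1, Slc7a2, Entpd1 and Nt5e levels. Those most like Slc7a2 were Ccl24 (0.97), a macrophage chemokine, Clec5a (0.97) and F7 (0.95), coagulation factor VII. By Spearman correlation these 3 stood lower, at 0.6, 0.66 and 0.58. Entpd1 was most like Lilrb4a (0.93), an inhibitory receptor of myeloid cells, Ccr2 and Mthfsl (both 0.92). For Nt5e they were Tnfrsf18, encoding the receptor GITR, Gm33104 and Il2rb (all 0.86), for Adora2a Il12rb2 (0.81), Ntng2 (0.8) and Atp2b4 (0.79), and for Nos2 Lif (0.71), Dpys (0.7) and Gm16096 (0.67). Arg2 had under 200 UMIs in these sums and was not ranked.

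Promoter windows were at hand for 2 of the 7 genes, a pair for Entpd1 and 1 for Nt5e (RefSeq, from 250 bases before to 50 after a start). None of the 3 windows held an exact match on either strand to the motifs searched. These were the STAT motif TTCNNNGAA, present in 8.3% of 32851 windows, its STAT6 form with 4 bases between TTC and GAA (6.95%), the hypoxia core ACGTG (19.6%), the cAMP response element TGACGTCA (1.79%), the AP-1 motif TGANTCA (7.81%) and the C/EBP motif TTGCGCAA (0.183%). No match says only that these letters are not in these windows.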

How the data were processed

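The authors deposited, per sample, a matrix of counts (whole numbers of UMIs per gene and barcode, not normalized). The submitters' processing notes name Cell Ranger 2.1.1 and mm10; the step that chose cell barcodes is not given in the sources used. The matrices held 17313 barcodes and 135415063 UMIs (vehicle) and 15909 and 158073632 (RP-6306).

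Cells needed 500 UMIs, 300 genes and at most 15% mitochondrial UMIs. Scrublet's automatic threshold called 0 doublets, and the 6% of barcodes with the highest scores in each library were removed (1026 and 952 barcodes). Both libraries were clustered together without integration (2000 variable genes without the 7 members, 30 principal components, 15 neighbours, Leiden resolution 1; scanpy 1.11.5, leidenalg 0.10.2, igraph 0.11.9, Python 3.11.15), and T and myeloid clusters were clustered again. Clusters whose leading genes went against a name are given by number, so differences from the study's own cell types may come from these rebuilt names. The 7 members and the lists of markers and related genes were chosen with earlier results of these data known. Named list genes are up to 4 per list and class with the largest ratio among those with 50 UMIs. The rule for genes of like pattern was applied to the named clusters of at least 50 cells and genes of at least 200 UMIs. Shares of cells at equal depth used cells thinned to 2000 UMIs. The limit given for a count of 0 is 3 counts per library. Gene positions are GENCODE bounds on GRCm38, the assembly of mm10, where 32158 of 32285 gene IDs matched. The ratio step was tested on simulated counts. Alternatives are given in the closing section. The values of 1 list gene are not reported here.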

Additional observations from a re-analysis of the deposited data

Results flagged for a closer look

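Nt5e differed in opposite directions between cell classes of the same 2 libraries. Its log2 ratio, RP-6306 over vehicle, was 1.64 in macrophage and monocyte-like cells, 1.02 in NK-like cells, 0.38 in T cluster T3 and 0.17 in tumour-like cells. It was -0.66 in regulatory T-like cells and -0.86 in B-like cells. In each of these 6 classes the counting interval left out 0. The B-like value rests on 42 and 18 UMIs. In cells thinned to equal depth the B-like share with Nt5e was 0.739% in vehicle and 0.668% in RP-6306. The regulatory T-like share at that depth was 18.4% and 10.3%. That class mixes clusters in different proportions, and Nt5e was 169 and 89.1 CPM in T0 but 41.0 and 95.3 CPM in T9. With 1 library per group the difference between classes was not tested.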

How the results depend on the processing

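Of the recomputed values that answer a comparison, 115 stayed within the limit set around the main value, 25 moved beyond it and 2 reversed. Of the others 149 stayed, 6 moved and 1 reversed. For a ratio that limit was its counting interval. A reversal was counted only where the main interval left out 0. Turns of direction in values whose interval included 0, as for Arg1 in macrophage and monocyte-like cells, are therefore not among the reversals. In macrophage and monocyte-like cells the log2 ratio of Arg1 (-0.06) became -0.16 with median-of-ratios size factors, 0.24 with cells thinned to 2000 UMIs, 0.18 as a mean over cells, 0.26 with cells assigned by their own marker scores and -0.36 with the 9 clusters weighted equally. Arg2 (-0.41) reversed to 0.23 when thinned. Slc7a2 (-0.37) reversed to 0.1 as a mean over cells and became -0.09 by marker scores, and its share difference reversed to -0.569 points when thinned. Entpd1 (0.02) became 0.28 by marker scores and 0.16 with equal cluster weights. In tumour-like cells Arg1 (-0.67) became -0.52 when thinned, -0.53 with a pseudocount of 10 CPM, -0.58 as a mean over cells and -0.76 by marker scores. Nos2 (-1.17) became -0.3 with that pseudocount and -0.79 by marker scores. Thinning gave -0.61 for Entpd1, 0.53 for Nt5e and -0.62 for Adora2a there. Entpd1 in regulatory T-like cells became -1.45 by marker scores. List genes past 2-fold went from 3 to 1 in CD8 T-like, 6 to 3 in CD4 T-like and 6 to 1 in regulatory T-like cells at 100 UMIs, and to 0 in CD8 T-like, CD4 T-like and tumour-like cells with a pseudocount of 10 CPM. Of the 18 genes of like pattern 8 stayed among the 20 most alike by Spearman correlation. Apart from the pseudocount, which shrinks low levels by construction, the cause was not tested. The equal cluster weights and the tumour-like cells without macrophage UMIs were chosen after seeing the data. No paired analysis was possible because there is 1 library per group. Values that rest on few UMIs (Nos2, Nt5e and Adora2a in macrophages, Arg2 in neutrophils) are limited by depth.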
